A study of Mus musculus with 6 samples.

Results

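The genes described here encode the subunits of the mitochondrial respiratory chain and of ATP synthase, from both the nuclear and the mitochondrial genome. Members were chosen by name from the gene symbols: protein-coding genes beginning with Ndufa, Ndufb, Ndufc, Ndufs, Ndufv, Uqcr or Atp5, the Cox4 to Cox8 families, Sdha to Sdhd, Cyc1, and the coding genes of the mitochondrial genome. The names matched 100 of the 55487 genes in the count table, and 93 of them reached at least 10 counts in at least 1 library and are the members. Of these, 82 are nuclear and 11 mitochondrial. Below that minimum were Cox6b2, Cox7b2, Cox8b, Cox8c, a second identifier of Atp5o, mt-Atp8 and mt-Nd4l. The members were not chosen by how they differed between groups.

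RNA came from the visual cortex of B6.CBA/Tar mice at postnatal day 28. The mice carry 0 mutant alleles of Mmp9 (WT), 1 (het) or 2 (UTRmut); the allele is altered in an untranslated region, and Mmp9 encodes a secreted protease of the extracellular matrix. The comparisons ask how cortical transcripts differed with genotype. Each of the 3 genotypes had 1 female library (replicate 1) and 1 male library (replicate 2). No treatment is labelled, and all groups share the strain, age and tissue. Pooling of animals, litters and days of preparation are not labelled, so p-values measure the spread between these samples, which may in part be technical. Within a genotype that spread is between a female and a male. The genotype comparisons had no sex term, so their p-values and SDs within a genotype include any difference between the sexes.

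The respiratory chain passes electrons from NADH and succinate to oxygen and pumps protons across the inner mitochondrial membrane, and ATP synthase uses the resulting gradient to make ATP. Complex I oxidises NADH, complex II oxidises succinate, complex III passes electrons from ubiquinol to cytochrome c, complex IV reduces oxygen, and complex V is ATP synthase. Complex II is wholly nuclear-encoded, whereas the others join nuclear subunits to a core made inside the mitochondrion. Neurons depend heavily on this machinery to restore ion gradients after signalling.

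Library depth ranged from 9500090 to 11966579 counts. Excitatory neuron markers were high in every library, with 873 to 1003 CPM (counts scaled to library size) for Slc17a7 and 1362 to 1733 CPM for Camk2a, so the defining markers of cortex were present. Mmp9 itself had only 4 to 16 counts per library (WT 4 and 9, het 9 and 9, UTRmut 8 and 16), too few to resolve a difference. Xist counts were 6164 to 7056 in the females and 5 to 15 in the het and UTRmut males. The WT male library had 268 Xist counts together with 931 counts of the Y-linked Ddx3y, so it stands apart from the other 2 males. Its summed level of choroid plexus markers was 49.5 CPM, against 2.33 to 10.2 CPM elsewhere. The WT female library had the highest share of TEC counts (an annotation class for loci still awaiting experimental proof), at 0.751%. The het female followed at 0.680%, and the remaining libraries lay at 0.452 to 0.523%. In bulk tissue, fewer cells of a type and less RNA per cell cannot be told apart. Wherever 6 values follow each other below, they are in the order WT female, WT male, het female, het male, UTRmut female, UTRmut male.

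Counts of several mitochondrial subunits were far below those of their neighbours. Apart from mt-Atp8, taken up below, each low one has nearly its whole length in an annotated, near-identical copy in the nuclear genome. The copy is a run of 7 unprocessed pseudogenes on chromosome 1 of GRCm38, minus strand, from 24611535 to 24616197, which is 4663 bases long. Its annotated pseudogenes match the 3′ stretch of mt-Co1, then mt-Co2, mt-Atp6, mt-Co3, mt-Nd3, mt-Nd4l and most of mt-Nd4. Identity was 100% over 99.56% of mt-Co2, 99.56% of mt-Atp6, 99.87% of mt-Co3, 98.99% of mt-Nd4l and 63.57% of mt-Nd4. For mt-Nd3 and mt-Co1 the matched stretch held 1 differing base each. Pairs of 30-base windows show how little separates each gene from its copy, with the differing base in capitals and none where the windows are identical. Positions are on the mitochondrial chromosome of GRCm38 (chrM:6390-6419 for mt-Co1, chrM:7338-7367 for mt-Co2 and chrM:9459-9488 for mt-Nd3), and the pseudogene windows are shown on their own strand.
mt-Co1: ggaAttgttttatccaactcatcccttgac
Gm29216: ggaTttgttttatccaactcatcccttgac
mt-Co2: aatatactgactatgaagacctatgctttg
Gm28661: aatatactgactatgaagacctatgctttg
mt-Nd3: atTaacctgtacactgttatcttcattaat
Gm28438: atCaacctgtacactgttatcttcattaat
Counted from 1 at the first base of each mitochondrial gene, these differences are A1066T in mt-Co1 and T3C in mt-Nd3, mitochondrial base first. The copy covers 31.26% of mt-Co1. For mt-Nd1, mt-Nd2, mt-Nd5, mt-Nd6 and mt-Cytb no copy is annotated in that run. None is annotated for mt-Atp8 (chrM:7766-7969) either, but it lies between mt-Co2 and mt-Atp6 and overlaps the start of mt-Atp6 at chrM:7927. The pseudogenes of these neighbours leave unannotated bases between 24614651 and 24614885 on chromosome 1. By its position mt-Atp8 therefore falls within the run, but only annotated pseudogenes were aligned and its sequence there was not compared. A read that matches both places cannot be assigned by its sequence, and how such reads were treated is not given in the sources used here. Counts of the genes inside the copy are therefore uncertain.

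Levels along the mitochondrial genome split accordingly. The coding genes on the heavy strand are cut from shared long transcripts, and mt-Nd6, a complex I subunit, is the only coding gene on the opposite strand. The complex IV catalytic subunit mt-Co1 (chrM:5328-6872) had 61634, 76551, 58107, 69004, 71254 and 76836 counts. The complex IV subunit mt-Co2 (chrM:7013-7696), which carries the copper centre that accepts electrons from cytochrome c, had 65, 106, 92, 73, 74 and 73 counts. Complex IV needs both proteins in equal number, yet mt-Co1 had 632 to 1053 times the counts of mt-Co2, depending on the library. The third core subunit of the enzyme, mt-Co3, had 64 to 85 counts, and mt-Atp6, which forms the proton path of ATP synthase, had 14 to 29. The complex I subunit mt-Nd3 had 4 to 10 counts, mt-Atp8 had 0 to 2 and mt-Nd4l 0 or 1. A count of 0 in a library allows up to 3 counts, or 0.259 to 0.312 CPM, for counting error only. The 7 pseudogenes together held 1655 counts over all libraries, fewer than mt-Nd2 alone in any of them.

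Per length, as CPM per kilobase of exon, the mean over the 6 libraries was 4133 ± 209 (SD, n = 6) for mt-Co1. The complex I subunit mt-Nd1 followed at 1136 ± 81.9 and mt-Cytb, the cytochrome b of complex III, at 1098 ± 90.8, and their ranges over libraries overlapped. Next came the complex I subunits mt-Nd4 at 306 ± 45.8, mt-Nd2 at 252 ± 44.9, mt-Nd5 at 176 ± 32.1 and mt-Nd6 at 80.5 ± 9.14. The genes inside the copy lay at 9.15 to 14.0 for mt-Co2, 8.71 ± 0.612 for mt-Co3, 2.42 ± 0.694 for mt-Atp6 and 1.85 ± 0.688 for mt-Nd3. Dividing the counts of mt-Nd4 by only the 502 bases that lie outside the copy gives 839 CPM per kb, and the same for mt-Co1 with 1062 bases gives 6013.

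**Figure D1:**
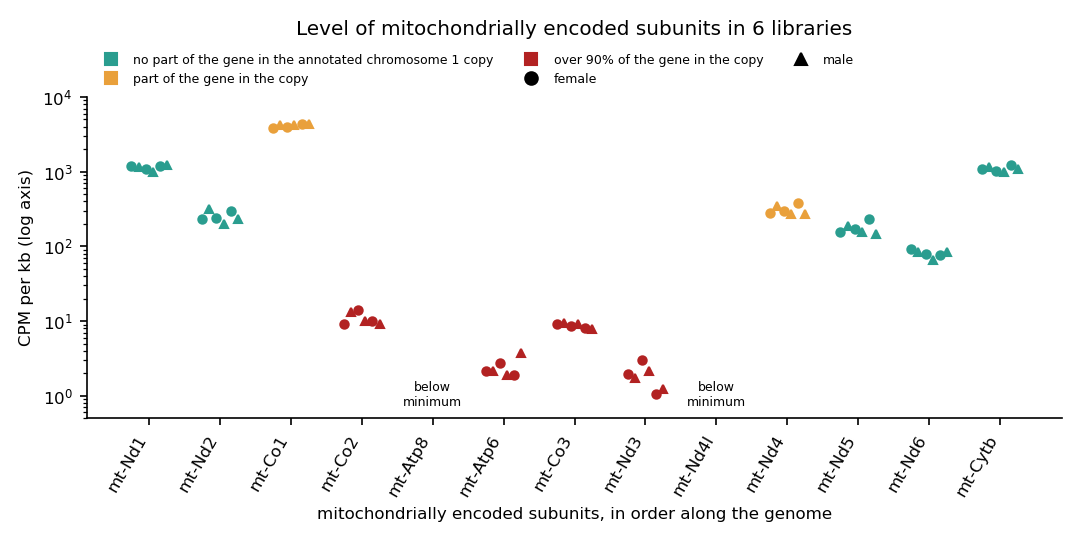
Level of each mitochondrially encoded subunit in the 6 libraries, as CPM per kilobase on a log axis, with genes in their order along the mitochondrial genome; each symbol is a library (in the order WT, het, UTRmut; circles female, triangles male) and colour gives how much of the gene lies in the annotated chromosome 1 copy. The 4 measured genes with over 90% of their length in the copy lie between 1.07 and 14.0, and the others between 66.6 and 4319.

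mt-Co1 alone made up 63.3 to 68.3% of the counts of the mitochondrial members. Those members together took 0.939 to 1.03% of a library's counts and the nuclear members 0.738 to 0.831%, a ratio of mitochondrial to nuclear counts of 1.30, 1.25, 1.24, 1.15, 1.30 and 1.18. The ratio was lowest in the males of het and UTRmut. Both het libraries lay below both WT libraries, whereas UTRmut overlapped both other genotypes, and these differences were not tested. The large ribosomal RNA mt-Rnr2, made from the same strand as the heavy-strand coding genes, had 4.76, 4.68, 5.67, 4.86, 5.50 and 8.15 times the counts of all mitochondrial members. This ratio was highest in the UTRmut male.

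mt-Nd2, mt-Nd4 and mt-Nd5 varied more between libraries than the other abundant mitochondrial genes. mt-Nd4 (chrM:10167-11544) lay at 384, 480, 404, 369, 519 and 372 CPM. mt-Nd5 (chrM:11742-13565) lay at 284, 346, 311, 288, 427 and 268 CPM. For all 3 genes the WT male and the UTRmut female were the highest libraries, and mt-Nd2 (chrM:3914-4951) reached 326 and 313 CPM there against 208 to 246 CPM in the other 4. Their SD of log2 CPM over the 6 libraries was 0.25 for mt-Nd2, 0.21 for mt-Nd4 and 0.25 for mt-Nd5, against 0.07 for mt-Co1, 0.11 for mt-Nd1 and 0.12 for mt-Cytb.

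The nuclear members had a median level of 40.7 CPM per kb and the mitochondrial members of 176. Using the longest transcript in place of merged exons raised the nuclear median to 58.1. The highest nuclear member was Cox8a, a small structural subunit of complex IV, at 363 ± 34.6 CPM per kb (330, 356, 354, 360, 346 and 430 by library). Next came Atp5a1 at 241 ± 14.0, the alpha subunit of the catalytic head of ATP synthase, and Cox4i1 at 236 ± 14.3, the common isoform of a regulatory subunit of complex IV. Their ranges over libraries overlapped. Cox6a1 at 211 ± 18.5 and Cox6b1 at 185 ± 14.5, both of complex IV, and Atp5b at 199 ± 14.3, the beta subunit that holds the catalytic sites, overlapped with each other as well. The order among these depended on the length used: per longest transcript Cox4i1 came first at 478, then Atp5b at 441 and Cox8a at 408.

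Complex I had 38 nuclear members, from Ndufa4 at 112 ± 10.1 and Ndufa2 at 86.3 ± 6.35 CPM per kb down to Ndufa4l2 at 0.523 ± 0.371. Ndufa4 is named for complex I but is now counted as a subunit of complex IV, and Ndufa2 is an accessory subunit. The 4 subunits of complex II lay close together, from the flavoprotein Sdha at 73.9 ± 4.11 and the membrane anchor Sdhd at 47.9 ± 3.67 to the anchor Sdhc at 19.5 ± 1.33. In complex III the small subunits Uqcr11 at 140 ± 9.71 and Uqcr10 at 96.6 ± 7.74 led and Uqcrq was lowest at 22.5 ± 1.96. Complex V was led by Atp5a1 and Atp5b, and its lowest member was Atp5s, a coupling factor, at 4.06 ± 0.592. Members of complexes I, IV and V thus spanned a wider range than those of complexes II and III. The low ends of the wider ranges were the rare paralogs Ndufa4l2 and Cox4i2 and the coupling factor Atp5s.

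**Figure D2:**
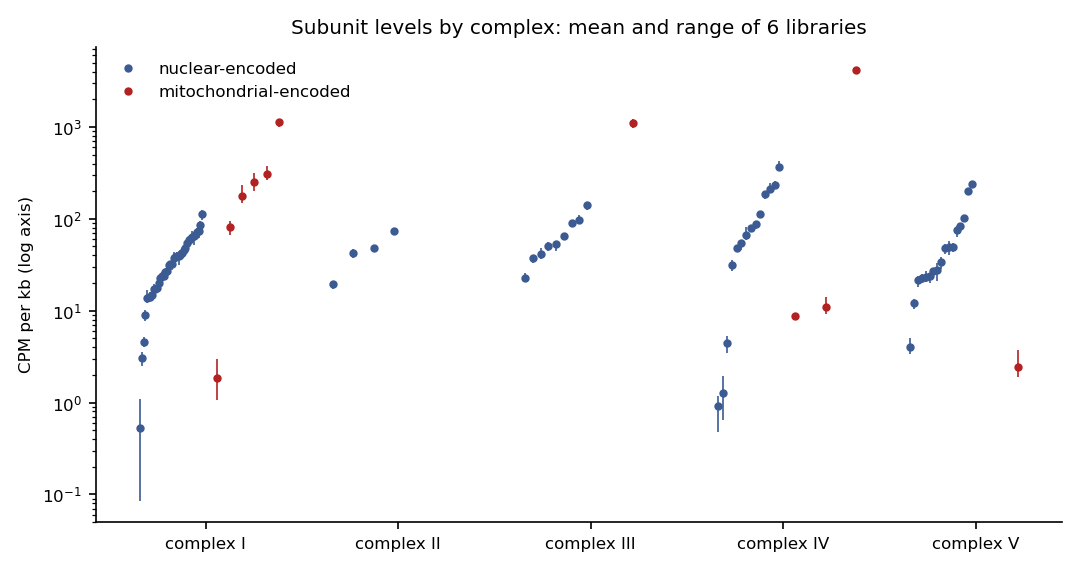
Mean level of each of the 93 members as CPM per kilobase on a log axis, grouped by complex and ordered by level within genome; vertical lines run from the lowest to the highest of the 6 libraries. The nuclear members of complex II lie between 19.5 and 73.9, and in complexes I, III and IV the highest mitochondrial subunit (1136, 1098 and 4133) lies above every nuclear one.

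Where a subunit has tissue variants, the cortex held mainly the common form. Cox4i1 counts were 367 to 1010 times those of Cox4i2, the isoform linked to lung and low oxygen, which was the lowest member of complex IV at 0.907 ± 0.275 CPM per kb. Cox7a1 and Cox6a2, known from heart and skeletal muscle, lay at 1.27 ± 0.524 and 4.41 ± 0.663 CPM per kb, against 113 ± 7.36 for Cox7a2 and 211 for Cox6a1. Ndufa4l2, a paralog of Ndufa4 known from hypoxia and from pericytes, had 7, 14, 7, 1, 6 and 2 counts, which overlap Shmt2 on the opposite strand. Counts of the pericyte markers Rgs5 and Kcnj8 were 29.3 to 49.8 and 0.935 to 2.41 CPM, whereas the muscle marker Ckm had 0 counts in every library and Acta1 had 47 to 86. Cox6b2, Cox7b2, Cox8b and Cox8c had at most 7 counts in any library. The 3 genes for the c subunit of the ATP synthase rotor gave steady shares per length: Atp5g3 49.5 to 51.5%, Atp5g2 27.0 to 28.4% and Atp5g1 20.8 to 22.8%.

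The ratio of Cox6a1 to Cox6a2 was 44.5, 40.0, 50.5, 43.8, 62.5 and 62.1. It was 42.3 ± 3.20 in WT and 62.3 ± 0.324 in UTRmut (SD, n = 2 each), and those libraries did not overlap. Cox6a2 had only 31, 42, 28, 36, 25 and 32 counts, so the small SD in UTRmut does not measure the precision of the ratio. Cox6a2 itself lay at 2.98, 3.62, 2.91, 3.36, 2.33 and 2.78 CPM, with a log2 fold of -0.37 (SE 0.32) that did not pass. Both UTRmut libraries lay below both WT libraries for it, where 14.6% of all genes tested did so. In the cortex Cox6a2 is known from parvalbumin interneurons. The marker Pvalb was at 33.6 and 37.1 CPM in WT and 37.5 and 37.1 in UTRmut. A list of 10 inhibitory neuron genes, Pvalb among them, summed to 1037 and 1077 against 1154 and 1060 CPM, with 6 genes higher and 4 lower. It includes genes of inhibitory neurons in general, such as Gad1 and Gad2 (292 and 132 CPM in the WT female). The sum is therefore not a level of parvalbumin cells alone. In that list both UTRmut libraries lay below both WT libraries for 2 genes. These were Tac1 (9.91 and 10.3 CPM in WT, 7.92 and 7.21 in UTRmut) and Kcnc1 (105 and 107, 103 and 79.4). They lay above for 1, Gad1 (292 and 304, 347 and 345). The part of these cells in the Cox6a2 difference was not tested. Cox7a1 had 9, 12, 6, 9, 4 and 4 counts, lowest in both UTRmut libraries and too few to pass the filter for testing.

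**Figure D3:**
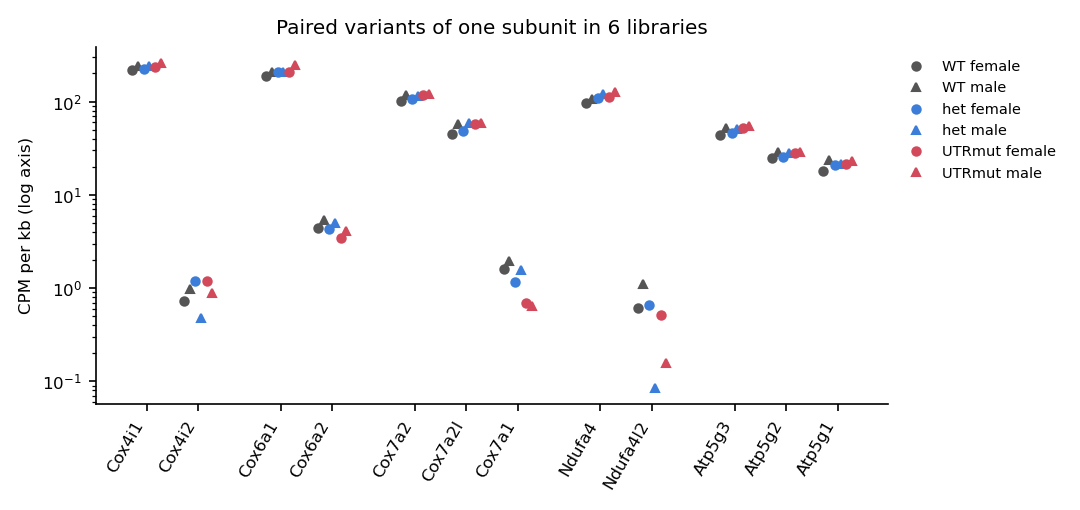
Levels of members grouped with their paralogs, as CPM per kilobase on a log axis. Each symbol is a library, coloured by genotype, with circles for females and triangles for males. Cox4i2, Cox7a1 and Ndufa4l2 lie at or below 1.93 in every library, and the 3 Atp5g genes keep their order in all 6.

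Nuclear members varied little. The smallest SD of log2 CPM over the 6 libraries (taken after adding 0.5 CPM) was 0.06, for the accessory subunit Ndufb3 (from 31.9 CPM in the WT female to 36.0 in the het male) and for Ndufs1, the large iron-sulfur subunit of complex I (139, 146, 133, 138, 149 and 147 CPM). Ndufa4l2 and Cox7a1 had the largest, both with counts so few that the added 0.5 CPM shrinks the SD, which is therefore not given. Among members tested, Atp5e, the small epsilon subunit of ATP synthase, had the largest nuclear SD at 0.23, from 37.3 CPM in the WT female to 57.4 CPM in the WT male.

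Promoters were searched for the letters of 3 elements known to occur at respiratory genes: GCGCA followed by its reverse complement (NRF1), CCGGAAG (the ETS core bound by GABP) and AAGATGGCG (YY1), on both strands, in RefSeq promoters of 300 bases (GRCm38.p6). Of the 82 nuclear members, 66 were matched to a promoter. The NRF1 letters occurred in 5 members, 7.58% against 1.07% of the promoters of all 27025 genes. The ETS letters occurred in 16 members, 24.2% against 9.93%, and the YY1 letters in 7 members, 10.6% against 1.64%. At least 1 of the 3 was found in 25 members, 37.9% against 12.1%. The 27025 genes were not limited to coding or expressed genes, as the members are, so the higher shares may not be particular to respiratory genes. Atp5j, Atp5k and Cox6a1 held 2 kinds each, with matches that did not overlap. The windows of Atp5j, which had the smallest p in UTRmut against WT, and of Cox6a1, high in every library, are shown 5′ to 3′ on the gene's strand with the matched letters in capitals (CTTCCGG is the ETS letters read on the other strand). They lie at chr16:84835046-84835075, chr16:84835020-84835049, chr5:115349101-115349130 and chr5:115348957-115348986, all on the minus strand.
Atp5j YY1: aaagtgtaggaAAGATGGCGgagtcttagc
Atp5j ETS: tagctgagggacCCGGAAGcacttaccctc
Cox6a1 NRF1: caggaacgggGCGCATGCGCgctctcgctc
Cox6a1 ETS: tccccatttccgCTTCCGGcgcgccggtgt
A match describes letters only and is not a binding site. Atp5j starts head to head with Gabpa, itself a subunit of GABP, and the annotated genes overlap on opposite strands. Of the nuclear members, 18 overlap another gene with at least 100 counts over all libraries, 17 of them on the opposite strand, and the strand setting of the counting is not given in the sources used here, so reads of such pairs may not be told apart.

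Of the 93 members, 89 passed the filter on low counts and were tested, 79 nuclear and 10 mitochondrial. Ndufa4l2, Cox4i2, Cox7a1 and mt-Nd3 did not pass it. The 10 mitochondrial members tested include mt-Co2, mt-Co3 and mt-Atp6, whose counts are few and uncertain because they lie inside the chromosome 1 copy. Counts and medians over the 10 below include them. Differences between genotypes in the whole list were small. Summed over the nuclear members, the level was 7150, 8194, 7466, 8210, 8036 and 8538 CPM. The WT female was the lowest library and the UTRmut male the highest, and each female lay below the male of her genotype. Summed over the mitochondrial members, the level was 9271, 10272, 9264, 9421, 10483 and 10035 CPM, with no such order by sex. The 3 genotype comparisons share libraries and are not independent of each other.

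In UTRmut against WT, 0 of the 89 members passed edgeR's quasi-likelihood test at a Benjamini-Hochberg adjusted p under 0.05, where 0.0062% of all genes tested passed. DESeq2 also called 0, and 3 members, all nuclear and higher, reached an unadjusted p under 0.05 with edgeR. Of all genes tested 1.09% did so on the higher side and 1.63% on the lower. The log2 fold was positive in 75 of 79 nuclear members, with a median of 0.11, against 47.9% and a median of -0.01 over all genes tested. The medians by complex were 0.11 (34 of 37 positive) for complex I, 0.11 (4 of 4) for complex II, 0.12 (9 of 9) for complex III, 0.10 (11 of 12) for complex IV and 0.10 (17 of 17) for complex V. Among the mitochondrial members 6 of 10 were positive, with a median of 0.04. Both UTRmut libraries lay above both WT libraries for 18 nuclear members, where 14% of all genes tested did so, and below for 2, where 14.6% did. The shift in the nuclear members depended on which WT library was kept. Without the WT female 44 of 79 were positive, with a median of 0.01, and without the WT male 78 of 79, with a median of 0.23. These fits had no sex term and leave WT with a single sex. The part of that library and the part of sex therefore cannot be told apart.

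Atp5j encodes coupling factor 6 of the ATP synthase stalk (ENSMUSG00000022890, chromosome 16, 84827866 to 84835625). It lay at 63.6, 71.5, 69.2, 74.0, 77.6 and 84.1 CPM, with both UTRmut libraries above all others, and a log2 fold of 0.26 (SE 0.10, adjusted p = 0.999 by edgeR with Benjamini-Hochberg adjustment). Ndufa4 (chromosome 6, 11900292 to 11907497) lay at 134, 149, 152, 167, 154 and 173 CPM, with a log2 fold of 0.21 (SE 0.10). The UTRmut libraries did not overlap WT for it but did overlap het. On the lower side, the accessory subunit Ndufb2 lay at 16.6 to 19.8 CPM in WT and het and was lowest in the UTRmut male at 13.9 CPM, with a log2 fold of -0.22 (SE 0.15). It overlaps Braf on the opposite strand, which had 18491 counts in all against its 1099. Cox6a2 is described above, and mt-Nd6 lay at -0.14 (SE 0.12), with overlapping libraries.

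**Figure D4:**
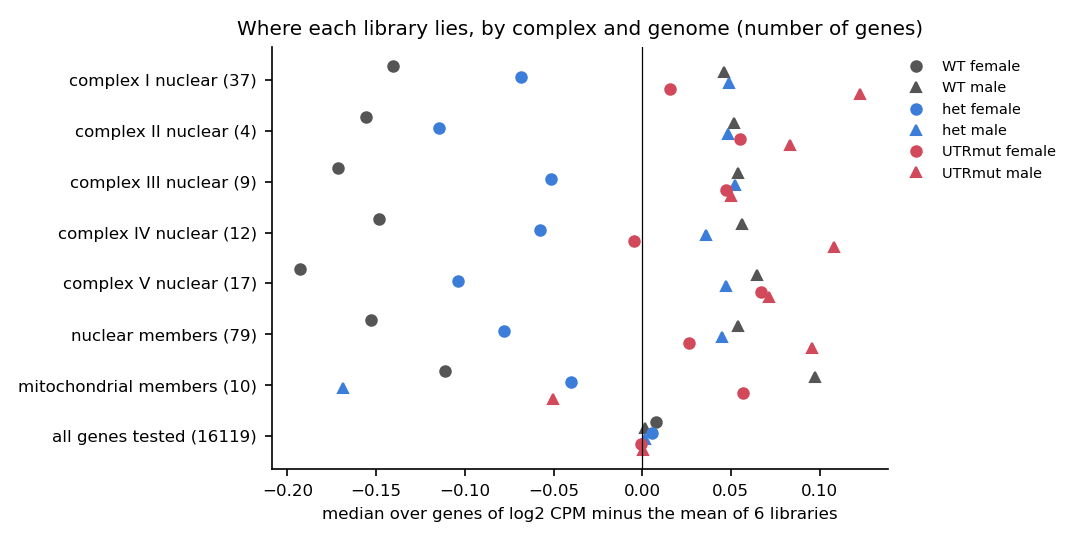
Median over genes of each library's log2 CPM minus the mean of the 6 libraries, by complex and genome, with the number of tested genes in brackets; colour gives genotype, circles females and triangles males. The WT female lies lowest in every nuclear complex (-0.19 to -0.14) and the het female next, whereas the medians of all genes tested lie within 0.01 of 0.

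Within each sex, UTRmut minus WT was positive in 75 of 79 nuclear members in females, with a median of 0.19, and in 45 of 79 in males, with a median of 0.03. Over all genes tested 48.4% and 50.5% were positive. For the mitochondrial members the counts were 7 of 10 in females and 4 of 10 in males, with medians of 0.15 and -0.16. These differences between the sexes were not tested. The TEC share was 0.751% and 0.477% in WT and 0.521% and 0.452% in UTRmut. With that share as a covariate, an alternative chosen after seeing the data, 50 of 79 nuclear members were positive, with a median of 0.02. Among marker lists, 4 of 4 tested red blood cell genes were lower, with a median of -0.90 (summed level of the list 179 and 231 CPM in WT, 149 and 96.6 in UTRmut). Of 8 oligodendrocyte genes 7 were lower, with a median of -0.10 (3711 and 3678 CPM in WT, 2955 and 3877 in UTRmut). Of 8 endothelial genes 6 were lower, with a median of -0.18 (69.5 and 77.6 CPM in WT, 66.3 and 63.0 in UTRmut), and 7 of 10 mural cell genes were lower, with a median of -0.13 (96.7 and 119 CPM in WT, 127 and 86.8 in UTRmut). Both tested choroid plexus genes were lower, with a median of -1.69, and that list was high in the WT male alone (3.46 and 49.5 CPM in WT, 2.33 and 10.2 in UTRmut). Excitatory neuron genes were split 4 and 4, with a median of 0.00 (3185 and 3542 CPM in WT, 3676 and 3312 in UTRmut). The part of these cell types and of the TEC share in the nuclear difference was not tested further.

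In het against WT the 2 genomes differed in sign. With edgeR 0 members passed, where 0.0124% of all genes tested did, DESeq2 called 0, and 3 members reached an unadjusted p under 0.05, all mitochondrial and lower, where 1.21% of all genes tested did so on the lower and 1.16% on the higher side. Of the mitochondrial members 8 of 10 were lower, with a median of -0.12, and of the nuclear members 54 of 79 were higher, with a median of 0.04. Over all genes tested 48.9% were higher and the median was -0.00. The 2 higher mitochondrial members, mt-Co2 and mt-Atp6, have few counts and lie inside the chromosome 1 copy. All 5 tested mitochondrial members of complex I were lower. Both het libraries lay below both WT libraries for 4 mitochondrial members and 3 nuclear ones, where 13.6% of all genes tested did so, and above for 0 mitochondrial and 7 nuclear ones, where 13.4% did. The nuclear count changed when single libraries were left out: 15 of 79 were positive without the WT female and 26 of 79 without the het male. Those fits had no sex term either, so the library and its sex cannot be told apart.

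mt-Nd1 lay at 1124, 1121, 1037, 951, 1127 and 1162 CPM, so that both het libraries were below the other 4, and its log2 fold was -0.17 (SE 0.08). mt-Cytb lay at 1244, 1341, 1169, 1123, 1402 and 1260 CPM, again with both het libraries lowest, and a log2 fold of -0.17 (SE 0.08). mt-Nd6 lay at 48.6, 43.4, 40.7, 34.6, 39.4 and 44.0 CPM, with a log2 fold of -0.29 (SE 0.12), and the UTRmut female lay below the het female. In the males 10 of 10 mitochondrial members were lower in het, with a median of -0.26, and in the females 4 of 10, with a median of 0.04, a difference that was not tested. Without the WT male the median was 0.01. The excitatory neuron markers were lower in 8 of 8 genes in the same comparison, with a median of -0.16 (summed level 3111 and 3095 CPM in het against 3185 and 3542 in WT), and 4 of 4 red blood cell genes were lower, with a median of -0.33 (168 and 175 CPM in het, 179 and 231 in WT). Of 7 tested meningeal genes 5 were higher, with a median of 0.48 (63.0 and 84.6 CPM in het, 47.7 and 99.6 in WT). The part of these cell types in the mitochondrial difference was not tested. The highest nuclear members by p were Ndufa4 at 0.17 (SE 0.10), the Rieske iron-sulfur protein Uqcrfs1 of complex III at 0.19 (SE 0.11), and Ndufv1, the NADH-binding subunit of complex I, at 0.14 (SE 0.10).

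In UTRmut against het, 0 members passed with edgeR, where 0.0124% of all genes tested did, DESeq2 called 0, and 2 members reached an unadjusted p under 0.05, both mitochondrial and higher, where 1.06% of all genes tested did so on the higher and 1.74% on the lower side. These were mt-Cytb at 0.22 (SE 0.08) and mt-Nd1 at 0.20 (SE 0.08), and the third by p was Ndufa9, an accessory subunit of complex I, at 0.19 (SE 0.10). Of the mitochondrial members 8 of 10 were higher, with a median of 0.20, and of the nuclear members 69 of 79, with a median of 0.09, against 49.7% and -0.00 over all genes tested. The 2 lower mitochondrial members, mt-Co2 and mt-Co3, have few counts and lie inside the chromosome 1 copy. All 5 tested mitochondrial members of complex I were higher. Both UTRmut libraries lay above both het libraries for 3 mitochondrial and 19 nuclear members, where 16.4% of all genes tested did so, and below for 1 and 3, where 17.9% did. Leaving out either UTRmut library brought the mitochondrial median to 0.08 or 0.09. Excitatory neuron markers were higher in 7 of 8 genes, with a median of 0.14 (summed level 3676 and 3312 CPM in UTRmut, 3111 and 3095 in het). Of 4 red blood cell genes 4 were lower, with a median of -0.57 (149 and 96.6 CPM against 168 and 175). Of 7 meningeal genes 6 were lower, with a median of -0.42 (70.0 and 57.4 CPM against 63.0 and 84.6), and of 8 endothelial genes 6, with a median of -0.20 (66.3 and 63.0 CPM against 67.7 and 71.1). Both mitochondrial ribosomal RNAs were higher, with a median of 0.64 (64150 and 90314 CPM against 57016 and 50064). The part of these lists in the members' difference was not tested. Lower members were Ndufb2 at -0.32 (SE 0.15), mt-Co2 at -0.30 (SE 0.25) and Cox6a2 at -0.29 (SE 0.32).

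Between the sexes the tested nuclear members all lay on the same side. With genotype as a further term, females against males gave all 79 nuclear members a negative log2 fold, from -0.31 to -0.00 with a median of -0.13, whereas 49.6% of all genes tested were positive and their median was -0.00. No member passed edgeR's test (0 of 89, where 0.0372% of all genes tested did, 0.0062% higher and 0.031% lower) and DESeq2 called 0. Of the nuclear members 16 reached an unadjusted p under 0.05 on the lower side, where 2.18% of all genes tested did, and 30 had every female library below every male library, where 5.84% did. On the higher side 0 nuclear members did either, where 4.81% and 6.45% of all genes tested did. The medians by complex were -0.13 for complex I, -0.12 for complexes II and III, -0.15 for complex IV and -0.14 for complex V. The mitochondrial members did not share this: 7 of 10 were positive, with a median of 0.03.

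Ndufa11, a membrane-arm subunit of complex I (ENSMUSG00000002379, chromosome 17, 56717767 to 56722141), lay at 32.3, 39.5 and 37.9 CPM in the females of WT, het and UTRmut and at 47.4, 44.5 and 43.5 CPM in the males. The groups did not overlap, and the log2 fold was -0.31 (SE 0.10, adjusted p = 0.614 by edgeR with Benjamini-Hochberg adjustment). Uqcrc1, a core protein of complex III (chromosome 9, 108936633 to 108949623), lay at 151, 158 and 169 CPM in females and 172, 182 and 197 CPM in males. Its log2 fold was -0.20 (SE 0.07). Cox5b, a zinc-binding subunit of complex IV, lay at 92.7, 101 and 96.3 CPM in females and 105, 106 and 130 CPM in males, with a log2 fold of -0.23 (SE 0.08). Neither of these overlapped between the sexes. The 3 X-linked members followed the other nuclear ones: Ndufa1 at -0.21 (SE 0.09), Ndufb11 at -0.10 (SE 0.08) and Cox7b at -0.10 (SE 0.08). On the higher side by p were mt-Nd6 at 0.08 (SE 0.10), mt-Nd5 at 0.17 (SE 0.20) and mt-Nd4 at 0.10 (SE 0.16). Leaving out either WT library, which leaves het and UTRmut to set the difference, mt-Nd2, mt-Nd4 and mt-Nd5 passed edgeR's test after Benjamini-Hochberg adjustment as higher in females, with log2 folds of 0.31, 0.31 (0.30 without the WT male) and 0.39. Leaving out either UTRmut library turned mt-Nd4 and mt-Nd5 to the lower side, at -0.10 and -0.09. mt-Nd6 turned to -0.17 with the TEC share as covariate, chosen after seeing the data, and to -0.00057 without the het male.

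**Figure D5:**
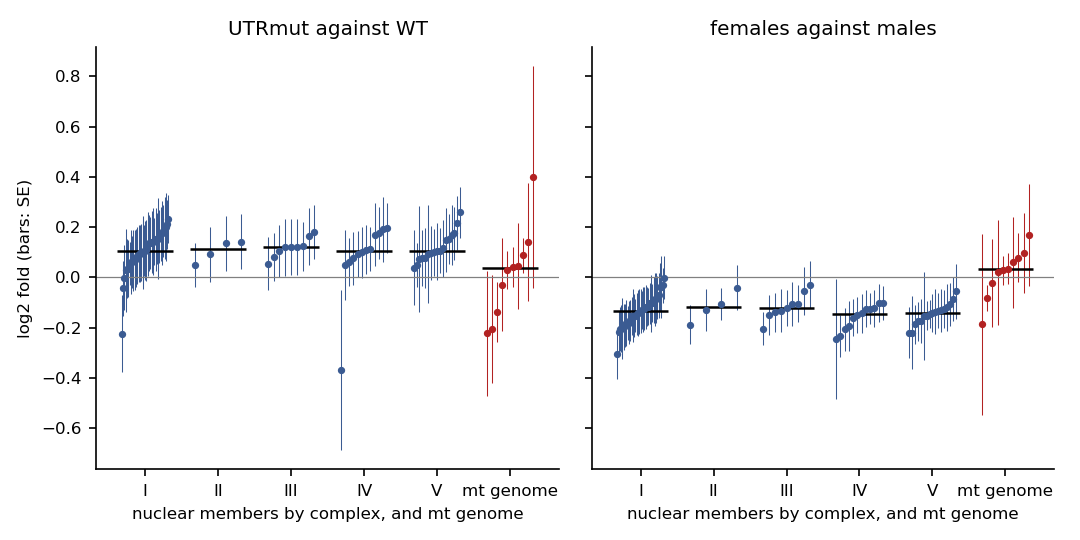
Log2 fold of each tested member in UTRmut against WT and in females against males, by complex for nuclear members and together for the mitochondrial genome; points are genes ordered by value, vertical bars 1 SE, black lines the median of the group. In females against males all 79 nuclear points lie below 0, and the mitochondrial points lie on both sides.

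Within each genotype, female minus male was negative in 76 of 79 nuclear members in WT (median -0.20), in 76 of 79 in het (median -0.13) and in 53 of 79 in UTRmut (median -0.06), and these were not tested against each other. Over all genes tested the median was within 0.01 of 0 in each genotype. The TEC share was higher in the female than in the male of each genotype, at 0.751 against 0.477%, 0.680 against 0.523% and 0.521 against 0.452%. With that share as a covariate, chosen after seeing the data, 42 of 79 nuclear members were negative with a median of -0.01. In that fit mt-Nd2, mt-Nd4 and mt-Nd5 passed as higher in females, with log2 folds of 0.76, 0.75 and 0.93. The share went with sex within each genotype, and the fit adds it to genotype and sex with only 6 libraries. Its log2 folds are therefore poorly determined. Among marker lists, 8 of 8 microglial genes were lower in females, with a median of -0.14 (summed level 246, 272 and 287 CPM in females, 298, 278 and 277 in males). Of 8 oligodendrocyte genes 7 were lower, with a median of -0.14 (3711, 3581 and 2955 against 3678, 3631 and 3877 CPM). Of 7 meningeal genes 5 were lower, with a median of -0.22 (47.7, 63.0 and 70.0 against 99.6, 84.6 and 57.4 CPM), and both tested choroid plexus genes, with a median of -2.77 (3.46, 4.16 and 2.33 against 49.5, 4.94 and 10.2 CPM). The part of these cell types was not tested. The replicate number equals the sex in this design, so a batch marked by that number cannot be told apart from sex.

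Genes that serve the chain without being subunits of it were counted from fixed lists. No assembly factor, carrier, fuel enzyme, mitochondrial expression factor or nuclear regulator passed edgeR's test in UTRmut against WT. Of 45 tested assembly factors 29 were positive, with a median of 0.07, among them Cox20, a chaperone of the mt-Co2 protein, at 0.37 (SE 0.23), and Uqcc2, needed to make cytochrome b, at 0.19 (SE 0.12). Bcs1l, which inserts the Rieske protein into complex III, lay at -0.29 (SE 0.18). Of 27 electron carriers, shuttles and oxidative fuel enzymes 22 were positive, with a median of 0.07, including Dld, the shared dehydrogenase subunit of the pyruvate and oxoglutarate complexes, at 0.16 (SE 0.09), Fh1, fumarase, at 0.16 (SE 0.12), and Idh3g of isocitrate dehydrogenase at 0.14 (SE 0.09). Of 26 genes for mitochondrial genome expression 11 were positive, with a median of -0.02; Fastkd5, which matures mitochondrial transcripts, lay at 0.40 (SE 0.24), the helicase Supv3l1 at -0.19 (SE 0.16) and the mitochondrial RNA polymerase Polrmt at -0.18 (SE 0.15). Of 12 nuclear regulators 3 were positive, with a median of -0.03, and Gabpa was at 0.05 (SE 0.11), Myc at -0.24 (SE 0.34) and Pprc1 at -0.14 (SE 0.21). The ribosomal RNAs mt-Rnr1 and mt-Rnr2 lay at 0.88 (SE 0.12) and 0.60 (SE 0.19) and did not pass either. In females against males the carriers and fuel enzymes lay as the subunits did, with 25 of 27 negative and a median of -0.11, and the assembly factors less so, with 30 of 45 negative and a median of -0.06, a difference between lists that was not tested.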

How the data were processed

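The authors deposited 1 table of raw counts, with genes by Ensembl identifier and a column for each library. The submitters' processing notes name HTSeq 0.6.0, HISAT2, Trimmomatic 0.39 and GATK 4.2.3.0, and GRCm38 as build, in no stated order. Annotation release, strand setting and read filters: not given in the sources used here. Per the labels, the kit was TruSeq Stranded Total RNA, after phenol/chloroform extraction. Unspliced RNA and a varying removal of ribosomal RNA can therefore move counts between libraries.

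Identifiers were matched to GENCODE M21 (GRCm38): 55227 matched and 260 did not (0.0162% of counts). No per-sample column was left unused. Genes passed filterByExpr by genotype (minimum count 10, minimum total 15), leaving 16119. Counts were TMM-scaled and tested with edgeR 4.0.16 (R 4.3.3) by the quasi-likelihood F test, with all 6 libraries in each fit, genotype as a factor, and sex added for females against males. Adjustment was by Benjamini-Hochberg across the 16119 genes, with a threshold of 0.05. SE is the absolute log2 fold over the square root of F. Levels per length are CPM per kilobase of merged exons. Differences of log2 CPM within a sex or genotype used an offset of 0.5 CPM, which shrinks the values of genes with few counts, and have no test. The scripts were tested on simulated data. Copies of mitochondrial genes were aligned from the annotation's transcripts; processed pseudogenes of nuclear members were not assessed. Reads carry no molecular identifiers, so floors cover counting error only.

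Alternatives were DESeq2 1.42.0, RLE size factors, scaling on nuclear-encoded genes, no filter, a replicate block, sex without a genotype term, each library left out, the longest transcript as length and, chosen after seeing the data, the TEC share as a covariate. The rule named all mitochondrial members, those passing a test, the 3 with the smallest p in each comparison and direction, the 2 highest and the lowest nuclear members per complex, the 2 least and 2 most variable nuclear members, X-linked members, tissue variants, and up to 3 genes of each other list. Atp5e and Atp5k fall outside it and were named after their values were seen. A result for 1 further gene that the rule names is not reported here. The members and lists were chosen with earlier results of these data known.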

Additional observations from a re-analysis of the deposited data

Results flagged for a closer look

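For 7 of the 10 tested mitochondrial members, UTRmut minus WT had opposite signs in the 2 sexes, each from 1 library per genotype. The difference in log2 CPM between the sexes (females minus males) was 0.84 for mt-Nd2, 0.80 for mt-Nd4, 0.95 for mt-Nd5, 0.26 for mt-Cytb and 0.63 for mt-Co2, which were higher in UTRmut in females and lower in males. It was -0.73 for mt-Atp6 and -0.32 for mt-Nd6, which went the other way. Opposite signs were found in 34 of 79 nuclear members (43.0%) and in 55.6% of all genes tested. With 1 library per sex and genotype these differences were not tested. mt-Co2 and mt-Atp6 have few counts, so the 0.5 CPM added before taking logs shrinks their values, and lie inside the chromosome 1 copy.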

How the results depend on the processing

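With 1 choice changed at a time, 0 members passed in the 3 genotype comparisons. In females against males 0 to 3 passed with a library left out (mt-Nd2, mt-Nd4 and mt-Nd5 without either WT library), and 3 with the TEC share as covariate, chosen after seeing the data. Ranges over single libraries left out, as log2 folds, were as follows. In UTRmut against WT, 44 to 78 nuclear members were positive, with a nuclear median of 0.0096 to 0.23 and a mitochondrial median of -0.21 to 0.11. In het against WT, 15 to 76 were positive, with medians of -0.067 to 0.15 and -0.19 to 0.014. In UTRmut against het the mitochondrial median was 0.079 to 0.27. In females against males, mt-Nd6 ranged from -0.00057 (without the het male) to 0.20, mt-Nd5 from -0.088 to 0.39 and mt-Nd4 from -0.099 to 0.31, the last 2 negative without either UTRmut library. The TEC share as covariate gave 42 negative nuclear members, medians of -0.0086 (nuclear) and 0.14 (mitochondrial), and mt-Nd6 at -0.17. These values are poorly determined, because that share went with sex within each genotype. The cause was not tested. The median nuclear level was 58.1 CPM per kb by longest transcript and 43.8 with scaling on nuclear-encoded genes. With the replicate block, 76 of 79 nuclear members were positive in UTRmut against WT (median 0.11) and no call on a member changed. Same-numbered libraries deviated with r = 0.30 (WT and het), 0.07 (WT and UTRmut) and 0.21 (het and UTRmut), so the numbers were not taken as pairs. Of the values for the genes named by their p in a comparison, 264 kept direction and side of the threshold, 6 newly passed (mt-Nd4 and mt-Nd5) and 6 reversed; the other named genes were not counted, and of these mt-Nd2 newly passed in the same 3 alternatives. Counts of passing genes over all genes ranged, higher and lower, from 1 to 84 and 0 to 40 in UTRmut against WT, 1 to 35 and 0 to 6 in het against WT, 0 to 13 and 0 to 15 in UTRmut against het, and 1 to 235 and 5 to 67 in females against males; the reported counts were 1 and 0, 2 and 0, 0 and 2, and 1 and 5. Leaving out a library leaves its group with 1, assumed to vary like the others. In the genotype comparisons, fitted without a sex term, it also unbalances the sexes. Depth limits mt-Co2, mt-Co3, mt-Atp6, mt-Nd3 and the rare variants.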

Other observations

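Counts of 2 pseudogenes in the chromosome 1 copy stood apart in single libraries. Gm29216, the copy of the end of mt-Co1, had 132, 34, 323, 47, 50 and 42 counts in WT female, WT male, het female, het male, UTRmut female and UTRmut male. Gm28438, the copy of mt-Nd3, had 49 counts in the WT female and 2 to 8 in the other 5 libraries. The mitochondrial genes they match were not high in those libraries. mt-Co1 lay at 6036 CPM in the het female and 5932 CPM in the WT female, against 6432 to 6673 CPM in the other libraries. mt-Nd3 had 7 counts in the WT female.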
